A study of Mus musculus with 10 samples.

Results

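The genes described here are 10 hypoxia genes, Ankrd37, Slc2a1, Ndrg1, Bnip3, Vegfa, Pdk1, Egln3, Hif1a, Ldha and Ero1a, measured in mouse blood stem and progenitor cells from which the activity of the transcription factor HOXB4 was withdrawn. They were chosen by gene symbol, with their 4 h values known, and every probe set whose platform annotation names one of them and no other gene was taken. That gave 26 probe sets of 10 genes, out of 45037 probe sets and 18193 named genes, and 22 of the 26 lay at or above the median mean level of all probe sets. The 10 arrays form 5 groups of 2. All cells were transduced by retrovirus, expanded for 14 days with cytokines and 10 nM TMX (4-hydroxytamoxifen), sorted for GFP, c-kit and Sca1 without lineage markers, and kept for 12 h more with TMX. HOXB4-ER (HOXB4ERT in the labels) is HOXB4 joined to a TMX-dependent receptor domain, and those cells were then kept with TMX for 1 h, without TMX for 1 h or without TMX for 4 h. HOXB4const is HOXB4 that needs no TMX, and those cells were kept with or without TMX for 1 h. All 5 groups therefore carry a HOXB4 vector and had been in TMX, and in both constructs the transgene is driven by the retrovirus and not by the gene's own promoter. No 4 h arrays of HOXB4-ER cells left in TMX were analysed here, so time after the division of the cultures and withdrawal of TMX cannot be told apart in the 4 h arrays.

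Hypoxia-inducible factor 1 (HIF-1) is a pair of proteins, HIF1A and ARNT, that binds DNA and raises transcription when oxygen is low. With oxygen, the EGLN prolyl hydroxylases mark HIF1A for the VHL ubiquitin ligase and its degradation, so the factor is set mainly by protein stability and its messenger RNA need not move with its activity. Its targets move cells towards glucose uptake and glycolysis, and Egln3 is itself a target that feeds back on the factor. Blood stem cells lie in poorly oxygenated marrow and are known for glycolytic metabolism. Cytokine and growth factor signals also act on many of these genes.

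The core letters that HIF-1 is known to bind were looked for in the promoters of these genes. Those of Ankrd37, Slc2a1, Ero1a and Egln3 are shown because each has a probe set with both 4 h arrays above the other 8, though for Egln3 it is not the brightest. Bnip3 is added for its 4 h difference, in which 1 array overlaps with another group. The motif searched was ACGTG or GCGTG on either strand, so CACGT and CACGC count too, and overlapping matches were joined into 1 stretch. The windows run from 250 bases before to 50 bases after each annotated start (RefSeq, build GRCm38.p6), and entries were found for 9 of the 10 genes, with Ndrg1 not matched. Each line gives the stretch from the first to the last match before the start with flanking bases, 5′ to 3′ on the gene's strand, with the matches in capitals. The regions are chr8:45999851-46000100 (minus strand) for Ankrd37, chr4:119108669-119108728 (plus strand) for Slc2a1, chr14:45318616-45318715 (minus strand) for Ero1a, chr12:54204084-54204118 (minus strand) for Egln3 and chr7:138909522-138909638 (minus strand) for Bnip3. For comparison, Ldha, whose 4 h arrays did not stand apart, is shown from chr7:46845644-46845789 (plus strand).
Ankrd37: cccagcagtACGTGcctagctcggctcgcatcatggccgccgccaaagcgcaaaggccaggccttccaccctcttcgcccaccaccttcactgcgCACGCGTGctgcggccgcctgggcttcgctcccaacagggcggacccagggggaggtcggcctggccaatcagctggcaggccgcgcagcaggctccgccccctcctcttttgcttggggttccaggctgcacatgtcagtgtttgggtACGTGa
Slc2a1: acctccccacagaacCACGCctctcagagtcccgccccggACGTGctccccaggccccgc
Ero1a: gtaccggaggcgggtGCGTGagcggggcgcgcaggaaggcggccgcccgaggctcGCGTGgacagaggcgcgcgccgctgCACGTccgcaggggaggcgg
Egln3: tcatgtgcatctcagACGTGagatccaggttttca
Bnip3: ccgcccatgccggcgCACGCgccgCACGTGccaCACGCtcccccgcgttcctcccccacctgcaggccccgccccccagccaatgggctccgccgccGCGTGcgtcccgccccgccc
Ldha: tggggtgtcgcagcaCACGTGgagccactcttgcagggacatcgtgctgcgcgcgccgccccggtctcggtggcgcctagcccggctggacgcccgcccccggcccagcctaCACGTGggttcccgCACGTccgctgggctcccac

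Ankrd37 held 3 stretches before its start, Slc2a1 2, Ero1a 3, Egln3 1 and Bnip3 4. Ldha held 3 in the window shown and 1 in the other of its 2 windows. Of the other genes, Hif1a held 2, Pdk1 1 in 1 of its 2 windows and Vegfa 2 in 1 of its 2 windows. Each of the 9 genes thus had a match before at least 1 annotated start, in 10 of 12 windows (83.3%), against 38.6% of all 32851 windows in the table, and 4.64% of all windows held 3 or more. A match is a description of letters and not a site. Ldha and Bnip3 held as many stretches as Ankrd37 or more, so the count of matches did not order the genes by their 4 h values.

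In HOXB4-ER cells without TMX for 4 h, Ankrd37, the glucose transporter gene Slc2a1, Bnip3 and Ero1a stood furthest above the cells with TMX, by brightest probe set. On those probe sets, the differences of Pdk1, Ldha, Hif1a, Vegfa and Egln3 lay within 1 standard error of 0. Other probe sets of Vegfa (2.87 ± 0.82), Egln3 (0.88 ± 0.62) and Hif1a (-1.12 ± 0.88) lay further from 0. For each gene's brightest probe set, the mean of the 4 h arrays minus the mean of the with-TMX arrays was above 0 for 10 of 10 genes, with a median of 0.67 on the log2 scale and a range from 0.00 for Pdk1 to 2.56 for Ankrd37. Among all 18193 genes 51.7% were above 0, with a median of 0.02. These values entered the choice of the genes and are a description, with no test. Over all 26 probe sets, 20 were higher at 4 h and 6 lower. With the mean of all probe sets of a gene, Ndrg1, Pdk1 and Hif1a were below 0.

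**Figure D1:**
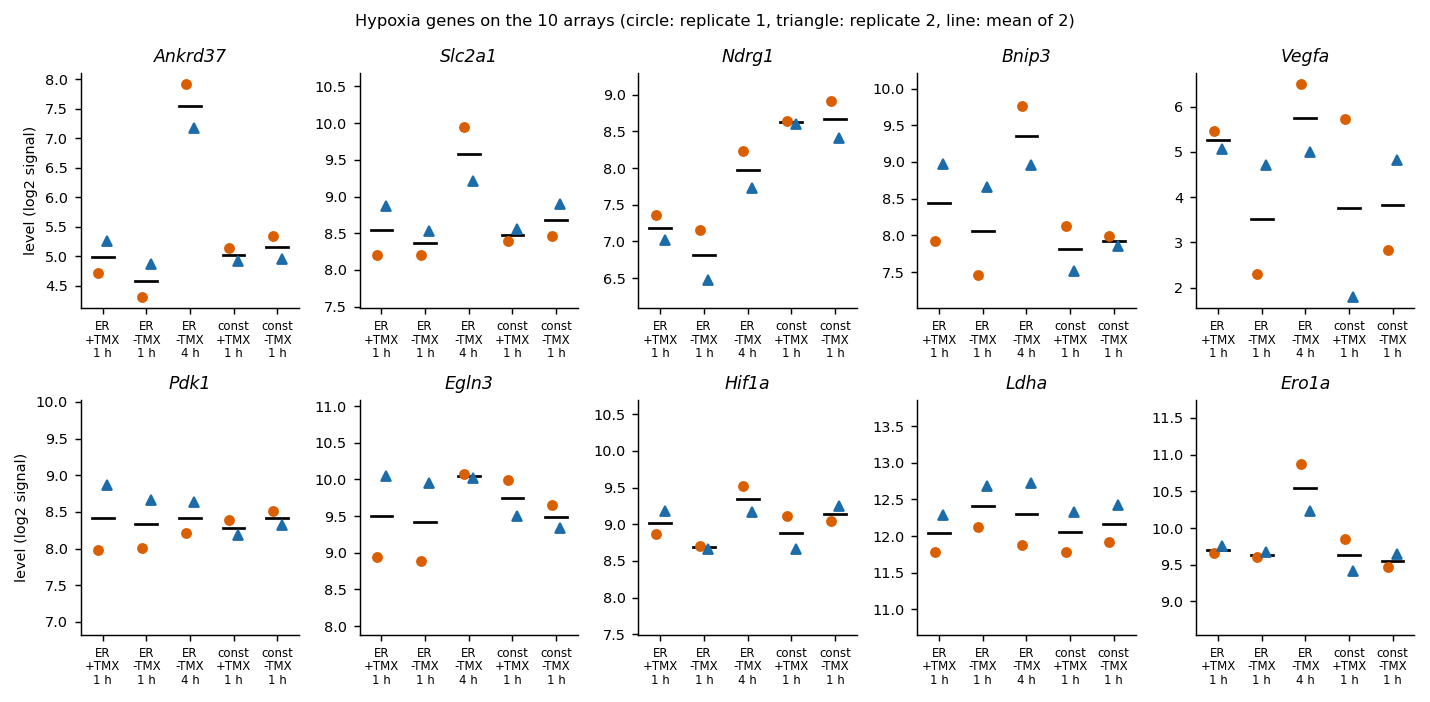
Deposited log2 signal of the brightest probe set of each of the 10 genes (vertical axes, 1 panel a gene) on the 10 arrays, by group and replicate number. Ankrd37 is above 7 on both 4 h arrays and between 4.30 and 5.35 on the other 8, while Pdk1 and Ldha show no such gap.

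Ankrd37 encodes an ankyrin-repeat protein and is a strong target of HIF-1 in many cell types. Its single probe set (1436538_at) read 4.72 and 5.25 in HOXB4-ER cells with TMX, 4.30 and 4.88 after 1 h without it, 7.93 and 7.18 after 4 h without it, 5.14 and 4.92 in HOXB4const cells with TMX and 5.35 and 4.96 in HOXB4const cells without it. Both 4 h arrays were above all other arrays, by 1.83 at the nearest, and those of the other 4 groups lay close together, between 4.30 and 5.35. The 4 h difference was 2.56 ± 0.49 (limma's moderated standard error, 2 arrays a group), a fold of 5.91, and it kept its direction in 18 of 18 alternative settings (2.09 to 2.94).

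Slc2a1 encodes the glucose transporter GLUT1. Its brightest probe set (1434773_a_at) read 8.21 and 8.87 with TMX, 8.21 and 8.53 after 1 h without TMX, 9.95 and 9.21 after 4 h, 8.39 and 8.56 in HOXB4const cells with TMX and 8.46 and 8.90 without it. The 4 h arrays were the highest of the 10, and the other 8 overlapped between groups. The difference was 1.04 ± 0.49, a fold of 2.06, and ranged from 0.67 without 4 h replicate 1 to 1.41 without 4 h replicate 2. A second probe set (1426599_a_at) also had its 4 h arrays, at 9.58 and 8.78, above the other 8, which ran from 7.77 to 8.52. The third (1426600_at) read 8.59 and 7.08 at 4 h against 7.22 and 7.16 with TMX, so there replicate 1 alone was high.

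Ldha and Pdk1 act further along glucose use: lactate dehydrogenase A turns pyruvate into lactate, and pyruvate dehydrogenase kinase 1 keeps pyruvate out of the mitochondrial citric acid cycle. Ldha (1419737_a_at) read 11.79 and 12.29 with TMX, 12.13 and 12.69 after 1 h, 11.88 and 12.72 after 4 h, 11.79 and 12.33 in HOXB4const cells with TMX and 11.92 and 12.42 without it. The groups overlapped, and replicate 2 was higher than replicate 1 in each of the 5. The 4 h difference was 0.26 ± 0.52, and -0.16 without 4 h replicate 2. Pdk1 (1423748_at) read 7.98 and 8.86 with TMX, 8.01 and 8.66 after 1 h, 8.21 and 8.64 after 4 h, 8.39 and 8.19 in HOXB4const cells with TMX and 8.51 and 8.32 without it. Its groups overlapped too, with a 4 h difference of 0.00 ± 0.50, and its other 3 probe sets gave 4 h differences of 0.03, 0.05 and -0.37.

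Bnip3 encodes a mitochondrial outer membrane protein that serves as a receptor for mitophagy. Its probe set (1422470_at) read 7.93 and 8.97 with TMX, 7.46 and 8.66 after 1 h, 9.76 and 8.96 after 4 h, 8.12 and 7.52 in HOXB4const cells with TMX and 7.99 and 7.86 without it. Replicate 1 at 4 h was the highest array, but replicate 2 at 4 h lay just under the with-TMX replicate 2. The difference was 0.91 ± 0.63 and ranged from 0.39 to 1.43 when 1 array of the with-TMX group was left out.

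Ero1a encodes the oxidase of the endoplasmic reticulum that drives disulfide bond formation in secreted proteins. Its brightest probe set (1449324_at) read 9.66 and 9.76 with TMX, 9.61 and 9.67 after 1 h, 10.87 and 10.23 after 4 h, 9.85 and 9.42 in HOXB4const cells with TMX and 9.47 and 9.64 without it. Both 4 h arrays were above the other 8, by 0.38 at the nearest, and those 8 spanned only 9.42 to 9.85. The difference was 0.84 ± 0.44, a fold of 1.79. Of its other probe sets, 1419029_at read 9.01 and 8.87 at 4 h against 8.56 and 8.5 with TMX, with 1 HOXB4const array at 9.03. The other, 1419030_at, is taken up with the replicate numbers below.

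Vegfa, the gene of the main growth factor for blood vessels, was dim and its 2 probe sets went apart. The brighter (1420909_at) read 5.45 and 5.06 with TMX, 2.31 and 4.71 after 1 h, 6.5 and 5.0 after 4 h, 5.72 and 1.79 in HOXB4const cells with TMX and 2.84 and 4.83 without it. The other (1451959_a_at) read 1.77 and 1.74 with TMX, 2.63 and 5.16 after 1 h, 4.80 and 4.45 after 4 h, 4.07 and 3.62 in HOXB4const cells with TMX and 3.26 and 2.39 without it. Arrays of 1 group differed by up to almost 4 log2 units, and each group but the with-TMX group of the second probe set overlapped with at least 1 other. The 4 h differences were 0.50 ± 1.43 and 2.87 ± 0.82, and the first was -0.25 without 4 h replicate 1.

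Ndrg1 encodes a cytoplasmic protein induced by low oxygen and by differentiation. Its brightest probe set (1456174_x_at) read 7.36 and 7.02 in HOXB4-ER cells with TMX, 7.15 and 6.47 after 1 h without it, 8.23 and 7.73 after 4 h, 8.64 and 8.61 in HOXB4const cells with TMX and 8.91 and 8.42 without it. The 4 h arrays were above both other HOXB4-ER groups and below all HOXB4const arrays. The 4 h difference was 0.79 ± 0.47. It was 0.56 ± 0.47 on 1420760_s_at and below 0 on the other 3 probe sets, 2 of which lie below the median level of all probe sets, so that the mean of the 5 was -0.27.

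Among the regulators, Hif1a encodes the oxygen-sensitive subunit of HIF-1. Its brightest probe set (1427418_a_at) read 8.87 and 9.18 with TMX, 8.71 and 8.67 after 1 h, 9.52 and 9.17 after 4 h, 9.11 and 8.66 in HOXB4const cells with TMX and 9.04 and 9.25 without it. One 4 h array was the highest and the other lay within the range of the remaining 8. The 4 h difference was 0.32 ± 0.42. Its other 3 probe sets gave 0.18, -0.70 and -1.12, and the mean of all 4 was -0.33. The value of -0.70 is from 1448183_a_at, which is taken up with the replicate numbers below. That of -1.12 is from 1431981_at, which has a mean signal of 1.99, below the median level of all probe sets.

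Egln3 encodes the hydroxylase that marks HIF1A for degradation, 1 of a family of such enzymes, and is induced by HIF-1. The brighter probe set (1418649_at) read 8.95 and 10.05 with TMX, 8.89 and 9.95 after 1 h, 10.07 and 10.03 after 4 h, 9.99 and 9.50 in HOXB4const cells with TMX and 9.65 and 9.34 without it. The 4 h arrays were close to each other, and with-TMX replicate 2 lay between them. The difference was 0.55 ± 0.58 and vanished, at -0.00, without with-TMX replicate 1. On 1418648_at the 4 h arrays, at 9.49 and 9.62, were above the other 8 by 0.07 at the nearest, and the difference was 0.88 ± 0.62.

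Taking all 26 probe sets, 5 had both 4 h arrays above all 8 others: that of Ankrd37, 2 of Slc2a1 and 1 each of Egln3 and Ero1a. Over all 45037 probe sets 760 (1.69%) did so, and 3.85% had both 4 h arrays below all others, with 0 of the 26 among them. Against the with-TMX arrays alone, 9 of the 26 had both 4 h arrays higher, where 14.8% of all probe sets did. The choice of the genes used the 4 h arrays, so nothing is read from these shares. The comparison of 4 h with 1 h without TMX holds no array of the TMX group but the same 4 h arrays. It is therefore also a description. In it, 9 of 10 genes were higher at 4 h, with a median of 1.04 against -0.06 for all genes. The values ran from 2.96 for Ankrd37, 2.24 for Vegfa, 1.30 for Bnip3 and 1.21 for Slc2a1 to -0.11 for Ldha. The value of Vegfa had a standard error of 1.43, ran from 1.04 without 1 h replicate 1 to 3.44 without 1 h replicate 2, and was 0.73 ± 0.82 on the other probe set.

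Other measures also differed between the 4 h and the with-TMX arrays. The Gapdh control probe sets, whose 3′ minus 5′ difference is a sign of shortened or incompletely amplified RNA, read 1.42 and 3.47 at 4 h against 1.04 and 1.74 with TMX. In HOXB4const cells without TMX for 1 h the difference was 1.28 and 3.98, so high values were not particular to 4 h. Of the marker lists for other blood cells, 10 of 13 lymphoid and 8 of 10 dendritic genes were higher at 4 h than with TMX, and 5 of 13 monocyte and macrophage genes and 5 of 11 granulocyte genes were. Against the arrays after 1 h without TMX, the counts were 7, 5, 3 and 4 in that order. The summed linear signal of the monocyte and macrophage list ran from 1591 to 14624 at 4 h and from 1669 to 15842 with TMX, that of the dendritic list from 345 to 5528 and from 297 to 4710, and that of the lymphoid list from 575 to 1718 and from 423 to 1438. The erythroid list summed to 914 and 821 at 4 h and to 977 to 1810 on the other 8 arrays, with 4 of 9 genes higher at 4 h than with TMX. Only 2 of the 9 lay at or above the median level. These were Tfrc, at 9.62 and 9.48 at 4 h, and Epor, at 5.46 and 4.66. The sum is therefore mostly that of Tfrc, which is also among the HIF targets below. The part of these measures in the 4 h values was not tested. Of the genes that mark the sorted cells, 10 were measured, and their mean signals ran from 4.55 for Mecom and 4.71 for Slamf1 to 9.77 for Kit, 10.8 for Cd48 and 11.3 for Cd34, beside a median of 4.05 over all probe sets. Ly6a, the gene of Sca1, had no probe set of its own in the annotation. In such bulk samples, fewer cells of a type and less RNA per cell cannot be told apart.

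**Figure D2:**
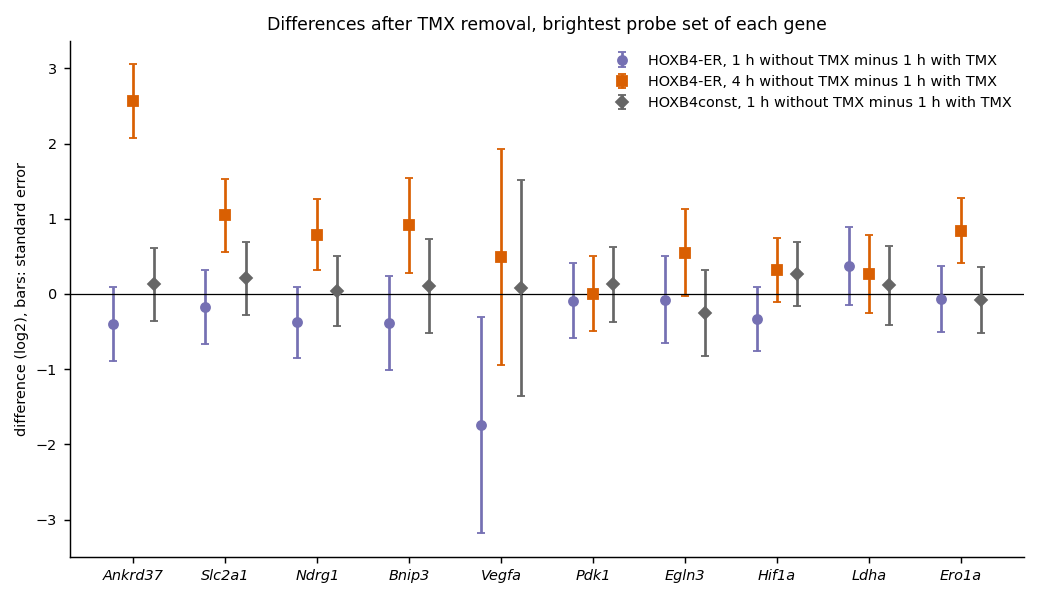
Differences of the 10 genes (brightest probe set, log2, with limma's moderated standard errors) for HOXB4-ER without minus with TMX at 4 h and at 1 h, and for HOXB4const without minus with TMX at 1 h. The 4 h points run from 0.00 to 2.56, while the 1 h points of HOXB4-ER run from -1.75 (Vegfa) to 0.37 (Ldha) and those of HOXB4const from -0.25 to 0.26.

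After 1 h without TMX, 0 of the 26 probe sets passed limma's test, and the brightest probe sets of 9 of 10 genes had values below 0. The median was -0.25, against 0.07 over all genes, and the largest difference was that of Vegfa, at -1.75 ± 1.43. The with-TMX arrays serve both the 1 h and the 4 h comparison, so the values of the 2 are not independent. Over all 45037 probe sets 0 (percent called 0) passed an adjusted p of 0.05, and 2145 had an unadjusted p under 0.05, 1 of them among the 26. That was the second Vegfa probe set, with 2.14 ± 0.82 (adjusted p = 0.954, limma), which goes against the first.

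The 95% intervals at 1 h were wide. That of Ankrd37 (-0.40 ± 0.49) ran from -1.55 to 0.76. That of Slc2a1 (-0.17 ± 0.49) ran from -1.32 to 0.98, that of Ero1a (-0.07 ± 0.44) from -1.10 to 0.96 and that of Bnip3 (-0.39 ± 0.63) from -1.86 to 1.08. A difference that misses the threshold does not show that the level stayed. Centring each array on its median shifted the 1 h differences by 0.39 downwards, so that 10 of 10 genes were below 0, and only 29.96% of all genes were above it.

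In HOXB4const cells, whose HOXB4 does not depend on TMX, removal of TMX for 1 h gave 8 of 10 genes above 0, with a median of 0.11 and a range from -0.25 for Egln3 to 0.26 for Hif1a, where 52.1% of all genes were above 0 (median 0.02). Over the 26 probe sets 12 were higher and 14 lower. After centring 0 of 10 genes were above 0, beside 32.9% of all genes, and after quantile normalization 5 of 10. Ankrd37 differed by 0.13, with an interval from -1.03 to 1.28, and Slc2a1 by 0.21, from -0.94 to 1.35. None of the 26 probe sets passed or had an unadjusted p under 0.05, and over all probe sets 0 passed (percent called 0) and 1956 had an unadjusted p under 0.05. The 1 h effect in HOXB4-ER cells minus that in HOXB4const cells was -0.52 ± 0.69 for Ankrd37, from -2.16 to 1.11, and 7 of 10 genes were below 0 (median -0.40), as were 16 of the 26 probe sets, where 51.2% of all genes were above 0 (median 0.02). That test also passed 0 probe sets (percent called 0), with 1698 at an unadjusted p under 0.05, 1 of them among the 26.

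Between the constructs, Ndrg1 had the largest difference over both TMX states at 1 h among the brightest probe sets of these genes. Its values, given above, were between 6.47 and 7.36 on the 4 HOXB4-ER arrays at 1 h and between 8.42 and 8.91 on the 4 HOXB4const arrays, with no overlap. HOXB4-ER minus HOXB4const was -1.44 ± 0.47 with TMX (95% interval -2.54 to -0.33) and -1.65 ± 0.33 over both TMX states at 1 h (-2.43 to -0.86), a comparison added after these values had been seen. Neither passed limma's test over all probe sets (adjusted p = 0.99995 and 0.350). On 1420760_s_at the HOXB4-ER arrays read 7.43, 7.10, 7.24 and 6.92 and the HOXB4const arrays 8.47, 8.09, 8.36 and 7.86, again with no overlap. The other 3 probe sets of Ndrg1 differed by 1.10, -0.81 and -0.91 over both TMX states, with intervals that included 0. In all, 2 of the 26 probe sets, both of Ndrg1, had the 4 HOXB4-ER arrays below the 4 HOXB4const arrays, where 3.26% of all probe sets did.

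The direction for Ndrg1 held after centring (-1.27) and quantile normalization (-1.69). The brightest probe sets of the other 9 genes differed by -0.30 to 0.59 over both TMX states, and all their intervals included 0. With TMX alone, the Vegfa probe sets again went apart, at 1.5 ± 1.43 and -2.09 ± 0.82 (95% interval of the latter -4.01 to -0.17), and Hif1a 1448183_a_at was at -1.73 ± 1.27. With TMX alone and over both TMX states, limma passed 0 of all probe sets (percent called 0 in each), with 1972 and 3387 at an unadjusted p under 0.05, 2 of them among the 26 each time. The constructs also differed in summed signals of markers of other cells. The granulocyte list summed to 13674 to 21574 on the HOXB4-ER arrays and 7767 to 9402 on the HOXB4const arrays. The mast cell and basophil list summed to 5684 to 7330 and 7844 to 9954, but the brightest genes weigh most in such sums. By gene, over both TMX states, 9 of 11 granulocyte genes were higher in HOXB4-ER cells. Of 8 mast cell and basophil genes, 4 were higher and 4 lower. The part of these markers in the Ndrg1 difference was not tested.

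**Figure D3:**
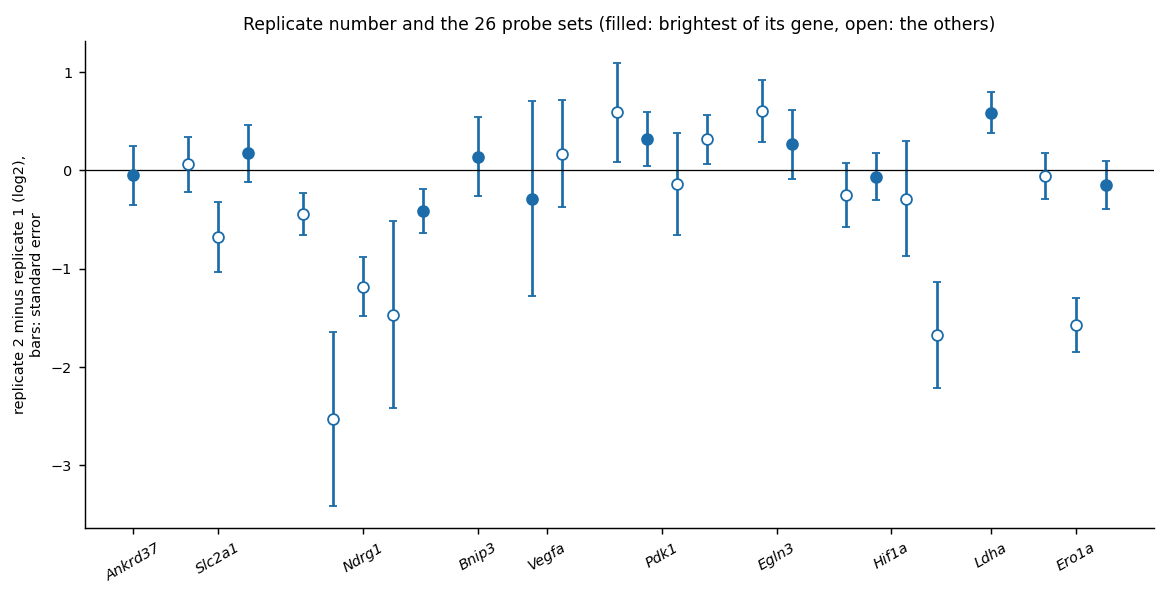
Replicate 2 minus replicate 1 (log2, limma's moderated standard error, averaged over the 5 groups) for each of the 26 probe sets, ordered by gene. Probe sets of 1 gene part from each other, with Ero1a 1419030_at at -1.57 and Ldha 1419737_a_at at 0.59.

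Some probe sets of these genes, like many of the platform at large, followed the replicate number of the arrays rather than the groups. For Ero1a 1419030_at, replicate 1 arrays read 7.83, 8.54, 8.54, 8.20 and 8.33 and replicate 2 arrays read 6.82, 7.29, 6.91, 6.55 and 6.04 in the order of the groups above. The replicate 1 arrays were all above the replicate 2 arrays, whereas the other 2 probe sets of Ero1a showed no such division. The difference was -1.57 ± 0.27 (95% interval -2.24 to -0.90, limma adjusted p = 0.164), lower in 5 of 5 groups. It was the same way in 5 of 5 groups for Ndrg1 1450976_at (-1.18 ± 0.30, limma adjusted p = 0.235) and Hif1a 1448183_a_at (-1.67 ± 0.54, adjusted p = 0.294). Smaller differences of that direction, also in 5 of 5 groups, were those of Ndrg1 1456174_x_at, its brightest (-0.41 ± 0.22, adjusted p = 0.478), and 1420760_s_at (-0.44 ± 0.21, adjusted p = 0.432). The share of all probe sets that were lower in 5 of 5 groups was not counted.

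Ldha went the other way, with a mean of 11.90 ± 0.14 over replicate 1 and 12.49 ± 0.20 over replicate 2 (SD, n = 5 each), a difference of 0.59 ± 0.21 that did not pass either (limma adjusted p = 0.329). Over all probe sets 0 passed (percent called 0) and 6152 had an unadjusted p under 0.05, 5 of them among the 26. Of all probe sets 3.76% had every replicate 2 array below every replicate 1 array and 2.74% above. Of the 26, 1 did so each way, Ero1a 1419030_at and Ldha, which is near the share of all probe sets. The Gapdh 3′ minus 5′ difference averaged 1.10 ± 0.26 over the replicate 1 arrays and 2.72 ± 1.08 over the others (SD, n = 5 each), and the monocyte and macrophage list summed to 11303 to 18757 and 1591 to 2751. Their part in these probe sets was not tested, and the labels used here do not say what the number stands for.

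**Figure D4:**
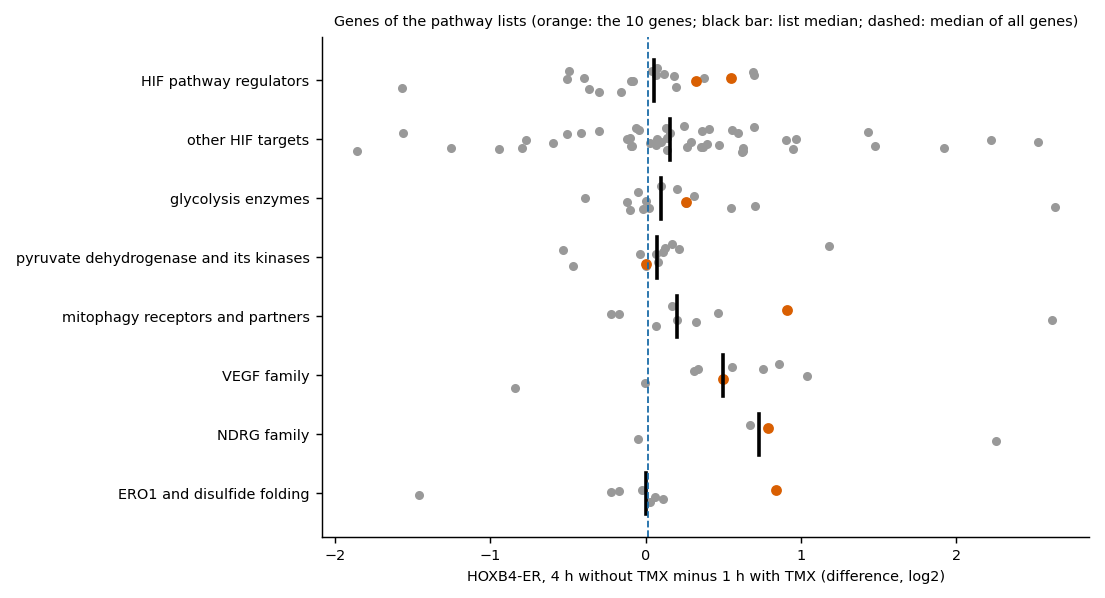
Differences at 4 h (HOXB4-ER without minus with TMX, log2) of the genes of the 8 pathway lists, 1 point a gene with the list's median. The list medians lie between 0.00 and 0.73, beside 0.02 for all genes, and single genes stand far from them, among them Eno2 (2.63) and Calcoco2 (2.62), both dim, and Ddit4 (2.23).

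Of the wider hypoxia pathway, some targets were higher beside these genes at 4 h and the regulators were mixed. The lists were written with earlier results of these data known, and the 4 h values are again a description. All lists but that of the other HIF targets also hold genes of the 10, so their counts and medians partly repeat values given above. Those genes are Hif1a and Egln3 among the regulators, Ldha, Pdk1, Bnip3, Vegfa, Ndrg1 and Ero1a. Of 47 measured other HIF targets 31 were higher, with a median of 0.16, and of 20 regulators 11 were, with a median of 0.05. Glycolysis enzymes were higher in 10 of 15 (median 0.10), pyruvate dehydrogenase and its kinases in 9 of 12 (0.07), mitophagy receptors and partners in 7 of 9 (0.20), the VEGF family in 7 of 9 (0.50), the NDRG family in 3 of 4 (0.73) and ERO1 with disulfide folding in 4 of 8 (0.00). With the mean of all probe sets of a gene, the other targets were higher in 26 of 47 (median 0.11), regulators in 9 of 20 and mitophagy genes in 4 of 9, and the NDRG family's median was 0.34.

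Among targets at or above the median level of all probe sets, the largest 4 h differences were those of Ddit4, an inhibitor of mTORC1, and Hmox1, the haem oxygenase gene. Ddit4 read 6.14 and 6.12 with TMX, 6.94 and 6.32 after 1 h, 7.71 and 9.0 after 4 h, 7.12 and 6.05 in HOXB4const cells with TMX and 7.33 and 6.30 without it. Both 4 h arrays were the highest, and the difference was 2.23 ± 0.67. For Hmox1 it was 1.48 ± 1.43, with 9.34 and 7.01 at 4 h against 7.93 and 5.46 with TMX. Replicate 1 was the higher array of Hmox1 in both groups, and replicate 2 minus replicate 1 over all groups was -2.25 ± 0.33, which the error of the 4 h difference contains. Among glycolysis enzymes of that level Hk2, a hexokinase, gave 0.71 ± 0.49 and Pfkp, a phosphofructokinase, 0.55 ± 0.45.

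Of the regulators, Arnt2 gave 0.70 ± 0.67 and Ep300, a coactivator of HIF-1, 0.69 ± 0.51. The pyruvate dehydrogenase kinase Pdk2 and the phosphatase Pdp1 had values of -0.53 and -0.47. Map1lc3b of autophagy gave 0.46, the VEGF co-receptors Nrp2 and Nrp1 gave 0.86 and 0.75, and Ndrg4 gave 0.67. The chaperone gene Pdia4 was at -1.46 ± 1.03. Dimmer genes gave larger values with larger errors, such as Eno2 (2.63 ± 1.08), Calcoco2 (2.62 ± 1.60), Bhlhe41 (2.53 ± 0.89), Ndrg2 (2.26 ± 0.73) and P4ha2 (-1.86 ± 1.19), named after their values were seen.

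Of the 116 listed genes outside the 10, 11 (9.48%) had both 4 h arrays above the other 8, where 2.77% of the brighter probe sets and 1.69% of all did. They were Ep300, Crebbp, Kdm3a, P4ha1, Ddit4, Narf, Insig2, Ccng2, Hk2, Pfkp and Dld, named after their values were seen. The lists were written with earlier results of these data known. Each listed gene enters by its brightest probe set, whereas the shares beside it count every probe set. Nothing is therefore read from this share or from that of listed genes below the other 8. Kdm3a, a histone demethylase induced by HIF-1, read 8.39 and 8.21 with TMX, 8.37 and 8.10 after 1 h, 9.31 and 9.23 after 4 h, 8.58 and 8.54 in HOXB4const cells with TMX and 8.28 and 8.18 without it. Its 4 h arrays nearly coincided and were the highest, with a difference of 0.97 ± 0.39. Egln2, Siah1a and Tfrc (2.59% of the 116) had both 4 h arrays below the other 8, where 2.30% of the brighter probe sets and 3.85% of all did. Tfrc, the transferrin receptor and itself a listed HIF target, read 9.62 and 9.48 at 4 h and 9.71 to 10.74 elsewhere. At 1 h, in HOXB4const cells and between the constructs, 0 genes of any list passed limma's test. At 1 h 25 of 47 other targets and 9 of 20 regulators were higher as deposited, and 11 and 2 after centring. Of all genes 55.2% were higher as deposited and 29.96% after centring.

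The genes most like Ankrd37 over the 10 arrays, by Pearson r after the mean of each replicate number was taken off and among 11340 other genes of sufficient level, were Jdp2 (0.967), Tnfrsf1b (0.956), Swt1 (0.948), Ankhd1 (0.946) and Ensa (0.942). Slc2a1 ranked at 9 (0.930) and Ero1a at 12 (0.925), while the other members came at rank 109 for Bnip3 (0.838), 330 for Hif1a (0.741), 574 for Egln3 (0.661) and 1279 for Vegfa (0.524). Pdk1, Ndrg1 and Ldha ranked at 3435, 3887 and 4546, with r of 0.260, 0.211 and 0.145. The arrays share group and depth of signal and the 4 h arrays weigh most, so these values are a description with no test. Jdp2, a transcription factor of the AP-1 family, read 8.24 and 8.0 at 4 h and 6.5 to 7.22 on the other 8 arrays. Swt1 read 7.92 and 7.91 at 4 h and 6.51 to 7.13 elsewhere. For Slc2a1 the nearest were Ankhd1 (0.956), Sema4b (0.946), Tnfrsf1b (0.943), Ffar2 (0.939) and Jdp2 (0.935), with Ero1a at rank 6 (0.932). On the 8 arrays without the 4 h group, r was 0.67 for Ankrd37 with Slc2a1, 0.12 for Ankrd37 with Ero1a and 0.27 for Slc2a1 with Ero1a.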

How the data were processed

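Affymetrix mouse genome arrays of 10 samples were used, hybridised with linearly amplified RNA per the labels. The deposited values are log2 signals, 1 for each probe set. GCOS and RMA are named, without their roles, in the submitters' processing notes. The mean linear signal without the lowest and highest 2% was equal on every array, which is how globally scaled GCOS signals behave, so the values were not normalized again. For detection calls and background correction, the method was not given in the sources used here. Precision is limited by 2 arrays a group.

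After 64 control probe sets were left out, 45037 were fitted with limma 3.58.1 (R 4.3.3), 1 mean for each of 5 groups over all arrays, with two-sided tests, Benjamini-Hochberg adjustment and a threshold of 0.05. Members and lists were chosen with earlier results of these data known, so the 4 h comparisons carry no test. The text names every member, the 2 genes of each pathway list with the largest 4 h difference among those at or above the median level, and any past the threshold. Each gene's values come from its brightest probe set. The labels call the arrays of a group biological replicates without naming animals or cultures, so p-values measure the spread between these samples, and the replicate number was not in the model. The script was tested on simulated data. Alternatives were scaling, a level filter, an added offset of 16, eBayes with trend, the replicate number as a block, gene means and leaving out each array.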

Additional observations from a re-analysis of the deposited data

How the results depend on the processing

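Leaving out each array in turn kept the count of probe sets past the threshold at 0 in each comparison that was recounted. The comparison of the constructs over both TMX states was not among them. The replicate block also kept it at 0, in the recounted comparisons other than that of the replicate number. The replicate number was not shown to pair the samples by the labels, although the replicate differences correlated in 10 of 10 group pairs (0.210 to 0.527). Between the constructs with TMX the count was 1 with 16 added to the linear signal and 1 with a trended, robust eBayes. For the replicate number it was 1048 with 16 added, 850 over probe sets at or above the median level and 2706 with the trended, robust eBayes, where Ldha passed (adjusted p = 0.00833). The cause was not tested. At 4 h, the number of the 10 genes above the with-TMX arrays was 8 to 10 when 1 array was left out and 7 with gene means. Between 4 h and 1 h it ranged from 7 to 10. Ankrd37, Slc2a1, Bnip3 and Ero1a kept their 4 h direction in 18 of 18 alternatives, and Pdk1 in 14. Of 1563 alternative values, 1448 counted as the same, 109 as moved and 6 as stronger. For a gene's difference, the same meant no passed threshold and a shift under the residual SD of its probe set, whatever the sign. For a count it meant no change or one within a fixed ratio. As 0 probe sets passed in the main setting, there was no call that could reverse. With 2 arrays a group, the standard errors of the 4 h differences reached 1.96 for Ndrg1 1423413_at.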
